A study of Mus musculus with 36 samples.

Results

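Transcripts of haemoglobin and of the red cell programme were followed in mouse bone marrow cells and tumour macrophages. The 7 genes were the adult beta-globin copies Hbb-bs and Hbb-bt, the adult alpha-globin copies Hba-a1 and Hba-a2, Alas2, Klf1 and Slc4a1. They were taken by gene name, and all 7 were found in each of 3 expression tables of 56026, 56575 and 57252 gene models. They were chosen by their FPKM in these same data, since haemoglobin values were lower after treatment, so every difference from PBS is given as a description without a test. RNA was sequenced in 36 libraries that fell into 12 groups of 3. Each of 4 populations was sampled after OMV-SIRP-G, after OMV-SIRP and after PBS (phosphate-buffered saline). Bone marrow gave granulocyte-macrophage progenitors (GMP) and monocytes. Tumours gave tumour-associated macrophages (TAM), from mice bearing either B16-F10, a melanoma line, or MC38, a colon carcinoma line. OMV is the usual abbreviation for an outer membrane vesicle, a particle shed by Gram-negative bacteria. What the suffixes stand for, the doses, the timing and the ages of the mice are not stated in the labels. The labels give WT as the genotype of every group. The design text speaks of pooled samples and does not tie the 3 libraries of a group to different animals. P-values therefore cover the variation among these libraries alone, and that variation may be technical.

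Haemoglobin carries oxygen in red cells and is built from alpha-globin and beta-globin chains around haem. Alas2 encodes the erythroid form of the enzyme that starts haem synthesis, Klf1 encodes a transcription factor that drives beta-globin and other red cell genes, and Slc4a1 encodes band 3, the anion exchanger of the red cell membrane. In the erythroid lineage Klf1 acts in nucleated precursors, while reticulocytes, the youngest circulating red cells, still carry large amounts of globin messenger RNA. GMP, monocytes and macrophages belong to the myeloid lineage, and some macrophages engulf red cells. Whether the globin transcripts here were made in these cells or carried in with others was not tested. In bulk samples such as these, fewer cells of a type and less RNA per cell cannot be told apart.

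Reads assigned to genes numbered 13036567 to 19822660 per library. Levels are in FPKM, fragments per kilobase of gene after the authors' scaling for depth, which allows genes of different length to be compared within a table. A pair of label checks touches the results below. In the MC38 PBS libraries the summed macrophage markers were far below the other MC38 libraries. They reached 1067 to 1085 FPKM after OMV-SIRP-G, 1173 to 1776 FPKM after OMV-SIRP and 50.1 to 115 FPKM after PBS, and all 7 listed markers had their lowest mean in PBS. Those 3 libraries go against their label as macrophages, and they are called the libraries labelled MC38 PBS. Monocyte PBS replicate 2 also stood apart: its GMP markers summed to 1625 FPKM, against 712 and 719 FPKM in the other PBS monocytes. Over all genes its FPKM summed to 538012, against 332949 and 332452, at a similar number of reads. Its FPKM values thus ran high as a whole.

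The haemoglobin copies are so alike that reads can fall on either copy, so the split between copies is uncertain and their sums are also given. In the build GRCm38, Hbb-bs lies at chr7:103826534-103828096 and Hbb-bt at chr7:103812524-103813996, both on the minus strand and 12537 bases apart. Hba-a1 lies at chr11:32283511-32284465 and Hba-a2 at chr11:32296489-32297298, both on the plus strand and 12023 bases apart. Alas2 lies at chrX:150547375-150570638 on the plus strand, Klf1 at chr8:84901928-84905291 on the plus strand and Slc4a1 at chr11:102348824-102366203 on the minus strand. In the GENCODE M21 transcripts the coding sequences of Hbb-bs and Hbb-bt are 444 bases long and 99.8% identical, with the substitution C417T from Hbb-bs to Hbb-bt, counted from the first base of the start codon. Those of Hba-a1 and Hba-a2 are 429 bases long and 99.8% identical, with the substitution C381T from Hba-a1 to Hba-a2. The following 60 coding bases are shown because they hold the only coding base, in capitals, by which a read can be told between the copies.
Hbb-bs: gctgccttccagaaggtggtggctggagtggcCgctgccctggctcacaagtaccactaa
Hbb-bt: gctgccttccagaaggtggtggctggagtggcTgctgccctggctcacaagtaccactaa
Hba-a1: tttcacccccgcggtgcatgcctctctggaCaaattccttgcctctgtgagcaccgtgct
Hba-a2: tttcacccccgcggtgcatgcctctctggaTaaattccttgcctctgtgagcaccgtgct
The longest stretch shared without a difference was 430 bases between the Hbb-bs and Hbb-bt transcripts and 415 bases between those of Hba-a1 and Hba-a2.

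The globins and Alas2 moved together across the libraries below, and the 120 bases before their RefSeq start sites (GRCm38.p6) are shown for comparison. Promoters were matched for 6 of the 7 genes, all but Slc4a1. Capitals mark the words searched on both strands: a GATA word (AGATAA with its variants that begin in T, end in G or both), the CACCC box, the CCAAT box and the TATA-like word ATATAA. Words found on the reverse strand appear as their reverse complement, so CACCC reads GGGTG.
Hbb-bs, chr7:103827929-103828048, minus strand: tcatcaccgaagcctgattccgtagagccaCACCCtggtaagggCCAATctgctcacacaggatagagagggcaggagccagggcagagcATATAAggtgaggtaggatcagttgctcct
Hbb-bt, chr7:103813924-103814043, minus strand: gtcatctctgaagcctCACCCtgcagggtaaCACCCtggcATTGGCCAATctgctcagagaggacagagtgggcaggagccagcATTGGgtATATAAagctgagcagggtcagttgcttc
Hba-a1, chr11:32283552-32283671, plus strand: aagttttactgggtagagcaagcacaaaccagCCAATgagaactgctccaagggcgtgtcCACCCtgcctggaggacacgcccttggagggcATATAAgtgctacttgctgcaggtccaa
Alas2, chrX:150547297-150547416, plus strand: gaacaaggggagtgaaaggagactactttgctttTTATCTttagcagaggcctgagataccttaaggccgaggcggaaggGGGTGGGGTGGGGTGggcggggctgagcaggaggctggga
All 4 globin windows held the CACCC and the CCAAT box and ATATAA together, with ATATAA beginning 28 to 31 bases before the start. Of 32851 windows of the same length in the RefSeq table, 0.286% held these 3 words together, while 31.7% held CACCC, 21.3% held CCAAT and 4.47% held ATATAA. The Alas2 window held a GATA word 86 bases before the start and 3 CACCC words on the reverse strand; the Klf1 window held a GATA word, a CACCC box and a CCAAT box. A GATA word was found in 12.8% of all windows. The 250 bases upstream of Hba-a1 and Hba-a2 share a stretch of 247 bases, against 14 bases at most between Hbb-bs and Hbb-bt. The deposited gene models of all 6 genes begin upstream of the RefSeq start and reach into these windows. These matches describe letters only.

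Globin transcripts were present in every library, at levels that differed by orders of magnitude between populations. The 4 adult globins took 1.35% ± 0.0617 of all reads in B16-F10 PBS libraries (SD, n = 3, as for all means below) and 0.35% ± 0.224 in the libraries labelled MC38 PBS. They took 0.0153% ± 0.00867 in PBS monocytes and 0.00404% ± 0.000627 in PBS GMP. The 3 tables were scaled separately, so levels in different tables stand side by side without a test. Within the bone marrow table, the PBS monocyte libraries, at 137 to 425 FPKM, did not overlap the PBS GMP libraries, at 38.8 to 55.4 FPKM. The embryonic globins were at or near 0: Hba-x was at 0 in every group, Hbb-bh1 averaged at most 0.173 FPKM and Hbb-y at most 0.89 FPKM in any group.

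**Figure D1:**
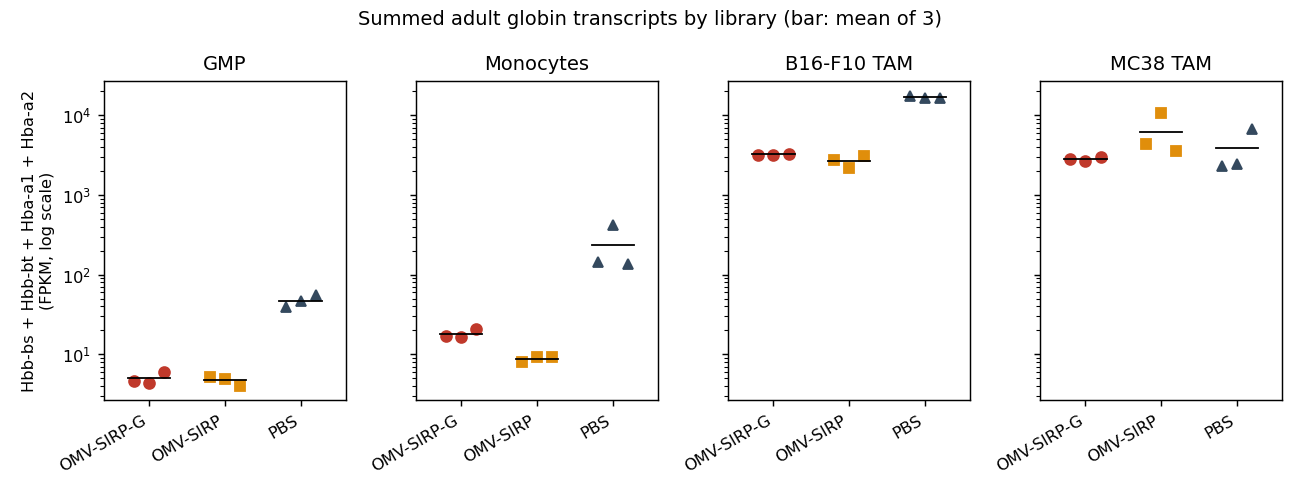
Summed FPKM of Hbb-bs, Hbb-bt, Hba-a1 and Hba-a2 on a log axis, 1 point per library and a bar at the mean of 3, for OMV-SIRP-G, OMV-SIRP and PBS in 4 populations. Treated libraries lie below all PBS libraries in GMP, monocytes and B16-F10 TAM, while the MC38 groups overlap with PBS.

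In GMP, haemoglobin transcripts were low in both treated groups and near each other there. Hbb-bs stood at 1.52, 1.93 and 3.11 FPKM after OMV-SIRP-G, at 2.47, 2.05 and 1.67 FPKM after OMV-SIRP and at 25.2, 25.8 and 30.6 FPKM after PBS. Hba-a1 stood at 2.54, 1.53 and 1.91 FPKM after OMV-SIRP-G, at 2.04, 2.56 and 1.28 FPKM after OMV-SIRP and at 9.31, 15.2 and 17.5 FPKM after PBS. For both genes the 6 treated libraries lay below the 3 PBS libraries, and the treated groups overlapped each other. The globin sum averaged 4.97 ± 0.818 FPKM after OMV-SIRP-G, 4.71 ± 0.601 FPKM after OMV-SIRP and 47.0 ± 8.29 FPKM after PBS. On log2(FPKM + 1) the sum differed from PBS by -3.00 ± 0.14 (SE) after OMV-SIRP-G and by -3.06 ± 0.14 after OMV-SIRP, and the ratios of the means were 9.45-fold and 9.97-fold lower. The minor copies were lower too: Hbb-bt averaged 0.433 ± 0.169 FPKM after OMV-SIRP-G, 0.327 ± 0.0439 FPKM after OMV-SIRP and 3.13 ± 0.778 FPKM after PBS. Hba-a2 averaged 0.354 ± 0.274, 0.366 ± 0.366 and 2.60 ± 0.766 FPKM in the same 3 groups. These copies passed the filter on low values, 1 FPKM or more in 3 or more libraries, only through PBS, so they had to be lower in the treated groups.

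Between the treated GMP groups no globin difference was detectable. The globin sum differed by 0.06 ± 0.14 on the log2 scale, OMV-SIRP-G minus OMV-SIRP (limma with Benjamini-Hochberg adjustment over all genes, adjusted p = 0.815). Of the 4 globins tested, limma called 0, with 0 at an unadjusted p under 0.05 and 0 by limma voom, where 14.8% of all tested genes were called. Hbb-bt and Hba-a2 rested on 12 to 16 reads in each treated group, so their tests say little about a difference. Counting over all 7 genes, 5 had every OMV-SIRP-G library below every PBS library, where 14.7% of tested genes did, and 5 had every OMV-SIRP library below, where 16.4% did; the choice of genes used these contrasts. Besides the 4 globins, whose copies share reads, these were Klf1 after OMV-SIRP-G and Alas2 after OMV-SIRP, both below the filter that the tested genes passed. B lineage markers moved with the globins in GMP. All 6 had their highest mean in PBS, and they summed to 12.2 to 13.1 FPKM after OMV-SIRP-G, 12.5 to 14.1 FPKM after OMV-SIRP and 22.9 to 29.9 FPKM after PBS. The eosinophil markers, 3 of 3 highest in PBS, summed to 2792 to 2891, 2382 to 2693 and 3348 to 4408 FPKM in the same groups. The mast cell and basophil markers, 3 of 4 highest in PBS, summed to 549 to 585, 395 to 419 and 728 to 893 FPKM. Other markers did not move with the globins. In the same groups the platelet and megakaryocyte sum was 73.7 to 76.1, 50.2 to 54.6 and 35.4 to 40.5 FPKM. Of these 6 markers, 3 had their lowest mean in PBS and 1 its highest. The mature neutrophil sum was 10263 to 10914, 18094 to 18443 and 8479 to 11272 FPKM, with 4 of 5 markers lowest in PBS. The part of these cells in the globin result was not tested.

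In monocytes the globins were lower after both treatments and, library by library, lowest after OMV-SIRP. Hbb-bs stood at 9.37, 9.14 and 11.5 FPKM after OMV-SIRP-G, at 3.51, 4.90 and 4.91 FPKM after OMV-SIRP and at 83.0, 218 and 77.9 FPKM after PBS. The 3 groups did not overlap. Hba-a1 was ordered likewise, at 4.69, 5.17 and 6.50 FPKM after OMV-SIRP-G, 3.76, 2.97 and 3.33 FPKM after OMV-SIRP and 52.1, 163 and 43.1 FPKM after PBS. The globin sum averaged 18.1 ± 2.30 FPKM after OMV-SIRP-G, 8.83 ± 0.759 FPKM after OMV-SIRP and 235 ± 164 FPKM after PBS. The spread in PBS came from replicate 2, at 425 FPKM beside 144 and 137 FPKM. Part of this gap lies in the FPKM scaling. As a share of all reads the globins took 0.0253% in replicate 2, beside 0.0106% and 0.0100%. Against PBS the sum differed by -3.43 ± 0.39 on log2(FPKM + 1) after OMV-SIRP-G and by -4.38 ± 0.39 after OMV-SIRP. Without PBS replicate 2 these values were -2.90 and -3.85.

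The higher globin level of OMV-SIRP-G monocytes over OMV-SIRP monocytes, 0.95 ± 0.39 on the log2 scale for the sum and 2.05-fold in the means, did not pass the test (limma, adjusted p = 0.293). It held in all 3 libraries of each group, and the call depended on PBS replicate 2, which is in neither group but enters the shared estimate of the spread. Without that library the same difference had an adjusted p of 0.000357 (limma), and in a fit of the 2 compared groups alone it had 0.00127. Calls rose over all genes in these fits, to 2516 and 2118 genes beside 293 in the main fit, so the change was not particular to the globins. The beta-globin sum differed by 1.01 ± 0.36 (adjusted p = 0.221, limma) and the alpha-globin sum by 0.72 ± 0.43 (adjusted p = 0.53, limma). Of the 4 globins tested limma called 0, with Hbb-bs alone at an unadjusted p under 0.05 and 0 by limma voom, where 2.44% of all genes were called. Over all 7 genes, 5 had every OMV-SIRP-G library above every OMV-SIRP library, where 22% of tested genes did. Against PBS, 6 were lower without overlap after OMV-SIRP-G and 5 after OMV-SIRP, where 11.5% and 16.5% of tested genes were. All of these counts included Alas2, and the count of 6 also included Slc4a1, at 3 reads against 17 in PBS. Both genes were below the filter that the tested genes passed, and the globin copies share reads.

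Some other cell markers moved with the globins in monocytes too. The B lineage markers moved in the same direction against PBS, at 9.88 to 10.9 FPKM after OMV-SIRP-G, 14.8 to 16.8 FPKM after OMV-SIRP and 33.3 to 71.7 FPKM after PBS, with all 6 at their highest mean in PBS. The GMP markers, 5 of 6 highest in PBS, summed to 218 to 257 FPKM after OMV-SIRP-G, 374 to 434 FPKM after OMV-SIRP and 712 to 1625 FPKM after PBS. Between the treated groups both of these sums were lower after OMV-SIRP-G, where the globins were higher. The eosinophil markers, 3 of 3 highest in PBS, had the order of the globins, at 35.7 to 46.9 FPKM after OMV-SIRP-G, 21.1 to 23.5 FPKM after OMV-SIRP and 75.3 to 175 FPKM after PBS. So had the mast cell and basophil markers, 4 of 4 highest in PBS, at 12.0 to 12.7, 8.57 to 10.1 and 21.7 to 49.7 FPKM. The mature neutrophil markers, 2 of 5 highest in PBS, summed to 852 to 911, 592 to 609 and 870 to 1498 FPKM. The macrophage markers went the other way against PBS, with 5 of 7 lowest there. They summed to 629 to 678 FPKM after OMV-SIRP-G, 686 to 776 FPKM after OMV-SIRP and 531 to 583 FPKM after PBS. The part of all these markers in the globin values was not tested.

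**Figure D2:**
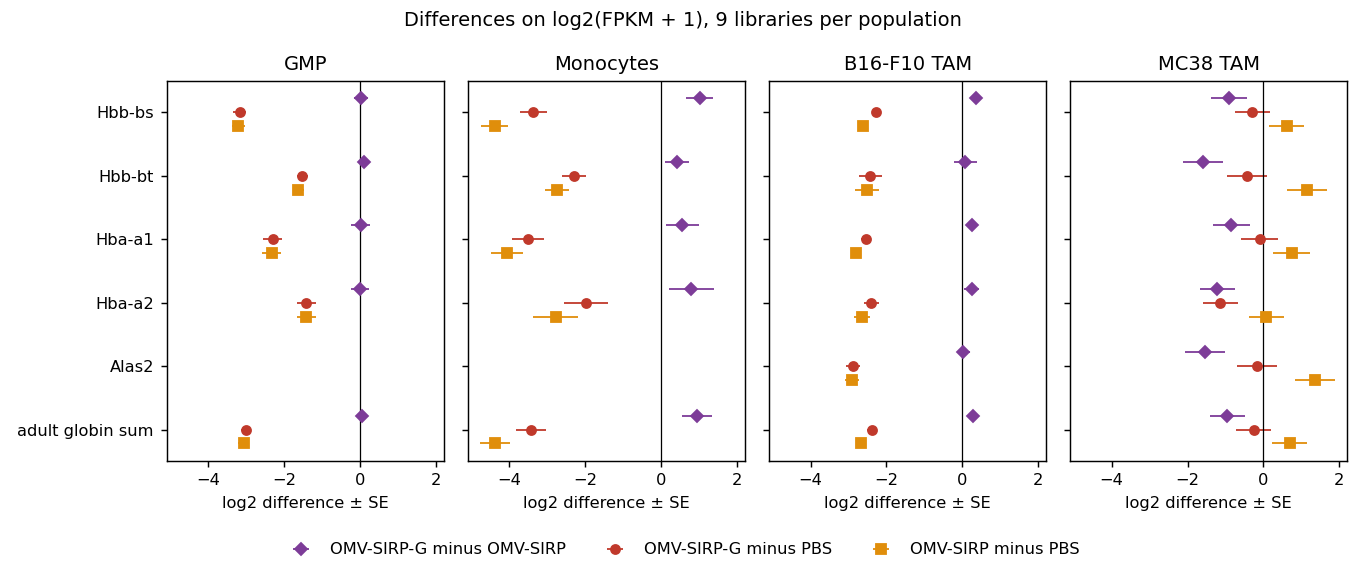
Differences on log2(FPKM + 1) with their standard errors for each globin, Alas2 and the globin sum, OMV-SIRP-G minus OMV-SIRP, OMV-SIRP-G minus PBS and OMV-SIRP minus PBS, in each of 4 populations. Alas2 is shown only where it passed the filter. Differences of the globins from PBS lie between -4.39 and -1.41 in GMP, monocytes and B16-F10 TAM, and between -1.14 and 1.14 in MC38 TAM.

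In TAM from B16-F10 tumours the globins were lower in both treated groups than in PBS. Hbb-bs stood at 1595, 1614 and 1670 FPKM after OMV-SIRP-G, at 1236, 1143 and 1439 FPKM after OMV-SIRP and at 8121, 7635 and 7733 FPKM after PBS. The 3 groups did not overlap. Hba-a1 stood at 1192, 1158 and 1116 FPKM after OMV-SIRP-G, at 944, 799 and 1191 FPKM after OMV-SIRP and at 7273, 6448 and 6369 FPKM after PBS. The globin sum averaged 3220 ± 17.2 FPKM after OMV-SIRP-G, 2671 ± 446 FPKM after OMV-SIRP and 16877 ± 694 FPKM after PBS. It differed from PBS by -2.39 ± 0.11 on log2(FPKM + 1) after OMV-SIRP-G and by -2.67 ± 0.11 after OMV-SIRP, or 5.24-fold and 6.32-fold in the means. The minor copies were lower in the treated groups as well. Hbb-bt averaged 247 FPKM after OMV-SIRP-G, 255 FPKM after OMV-SIRP and 1330 FPKM after PBS, and Hba-a2 averaged 192, 165 and 1021 FPKM in the same groups.

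Alas2 went with the globins in B16-F10 TAM. It stood at 23.2, 28.3 and 27.2 FPKM after OMV-SIRP-G, at 33.5, 21.8 and 22.7 FPKM after OMV-SIRP and at 241, 182 and 177 FPKM after PBS. Every treated library was below every PBS library, and the treated groups overlapped. Its log2 difference from PBS was -2.88 ± 0.18 after OMV-SIRP-G and -2.91 ± 0.18 after OMV-SIRP. Of the 7 genes, 5 were lower than PBS without overlap after each treatment, where 18.6% of tested genes were after OMV-SIRP-G and 8.75% after OMV-SIRP.

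Between the treated B16-F10 groups Hbb-bs was the only one of 5 tested genes that limma called, where 12% of all genes were called. It was higher after OMV-SIRP-G by 0.36 ± 0.10 on the log2 scale (limma, adjusted p = 0.0366), in all 3 libraries of each group. The call was fragile. The adjusted p of limma was 0.059 without the filter on low values, 0.0576 with a replicate block and 0.0879 with the 2 groups alone. It lay between 0.0619 and 0.12 when any 1 of 7 libraries was left out, PBS replicate 2 or 3, OMV-SIRP replicate 1 or 2, or any OMV-SIRP-G replicate. The beta-globin sum (0.30 ± 0.11, adjusted p = 0.101, limma), the globin sum (0.28 ± 0.11, adjusted p = 0.152, limma) and Alas2 (0.03 ± 0.18, adjusted p = 0.934, limma) did not pass. By limma voom the globin sum passed, at 0.28 (adjusted p = 0.0431). Without OMV-SIRP replicate 3 it differed by 0.39 and passed (limma, adjusted p = 0.0188), and without OMV-SIRP replicate 2 it differed by 0.15 and did not pass (limma, adjusted p = 0.325). Over all 7 genes, 1 had every OMV-SIRP-G library above every OMV-SIRP library, where 13.9% of tested genes did.

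Other cell markers also moved in B16-F10 TAM. The 4 T cell markers summed to 27.7 to 29.9 FPKM after OMV-SIRP-G, 26.4 to 31.0 FPKM after OMV-SIRP and 55.8 to 67.1 FPKM after PBS, and all 4 had their highest mean in PBS. The melanoma markers, 3 of 4 highest in PBS, summed to 521 to 602 FPKM after OMV-SIRP-G, 1640 to 1776 FPKM after OMV-SIRP and 1993 to 2276 FPKM after PBS. The 7 macrophage markers summed to 7134 to 7411, 3392 to 4646 and 3657 to 4070 FPKM in the same groups. The 6 platelet and megakaryocyte markers summed to 760 to 884, 259 to 449 and 130 to 162 FPKM, lowest in PBS, where the globins were highest. Of the 6, 3 had their lowest mean in PBS and 1 its highest, and 2 had a group mean of 1 FPKM or more, so few genes carried this sum. The part of these cells in the globin values was not tested.

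In TAM from MC38 tumours the mean globin sum was lower after OMV-SIRP-G and higher after OMV-SIRP than in the libraries labelled PBS, and both treated groups overlapped those libraries. Hbb-bs stood at 1523, 1548 and 1634 FPKM after OMV-SIRP-G, at 2431, 5397 and 1931 FPKM after OMV-SIRP and at 1261, 1412 and 3967 FPKM in the libraries labelled MC38 PBS. Each treated group overlapped PBS, in which replicate 3 was high, as was replicate 2 of OMV-SIRP. Alas2 followed the same libraries, at 15.0 to 16.6 FPKM in the 3 libraries after OMV-SIRP-G, 47.1, 96.5 and 23.8 FPKM after OMV-SIRP and 11.3, 13.5 and 37.3 FPKM after PBS. The globin sum averaged 2820 ± 127 FPKM after OMV-SIRP-G, 6145 ± 3859 FPKM after OMV-SIRP and 3847 ± 2557 FPKM after PBS. On the log2 scale it differed from PBS by -0.26 ± 0.47 after OMV-SIRP-G and by 0.69 ± 0.47 after OMV-SIRP. Without PBS replicate 3 these were 0.25 and 1.20, so the sign after OMV-SIRP-G rests on that library. Without OMV-SIRP replicate 2 the OMV-SIRP value was 0.22. The FPKM scaling also bears on this gap. As a share of all reads the globins took 0.228% ± 0.00991 after OMV-SIRP-G and 0.422% ± 0.238 after OMV-SIRP. The share was 0.35% ± 0.224 in the libraries labelled MC38 PBS.

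The OMV-SIRP-G libraries of MC38 TAM had the lower globins of the treated groups, with a difference of -0.95 ± 0.47 on the log2 scale for the sum that did not pass (limma, adjusted p = 0.482). Hbb-bt had the largest size at -1.58 ± 0.53 (adjusted p = 0.286, limma) and Alas2 was next at -1.53 ± 0.52 (adjusted p = 0.295, limma). Of 5 genes tested limma called 0, with 3 at an unadjusted p under 0.05 and 0 by limma voom, where 0.383% of all genes were called. Over all 7 genes, 4 had every OMV-SIRP-G library below every OMV-SIRP library, where 10.1% of tested genes did. Without OMV-SIRP replicate 2 the difference of the sum was -0.47. Against PBS 1 gene, Hba-a2, was lower without overlap after OMV-SIRP-G, at 64.9, 30.5 and 60.3 FPKM beside 110, 72.9 and 164 FPKM in PBS, where 20.1% of tested genes were. After OMV-SIRP all 7 overlapped PBS.

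**Figure D3:**
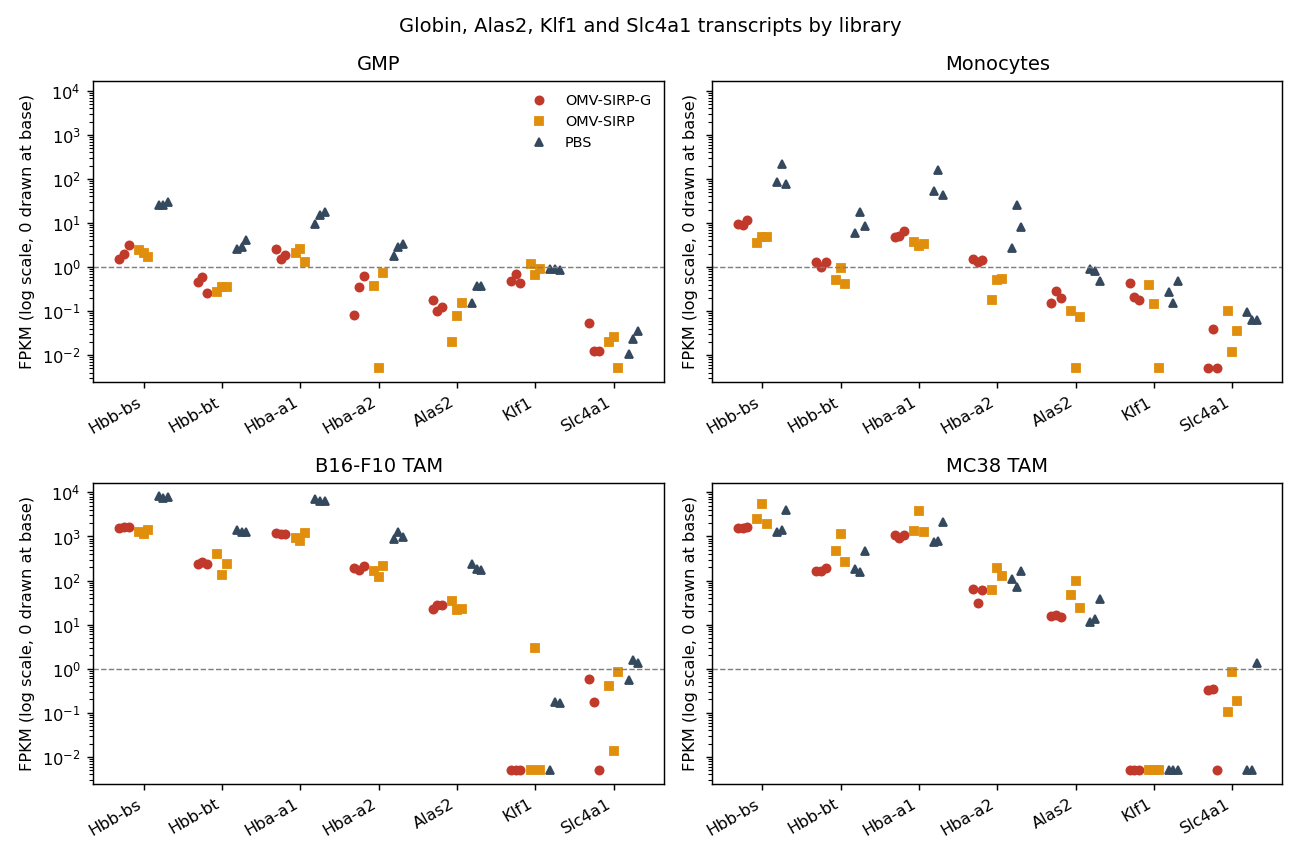
FPKM of each of the 7 genes in each library on a log axis, with zeros drawn at the base and a dashed line at 1 FPKM, for OMV-SIRP-G, OMV-SIRP and PBS. Globins and Alas2 sit far above 1 in both TAM populations, while Klf1 and Slc4a1 reach at most 2.88 FPKM in any library.

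The other red cell genes were scarce in all 4 populations, and neither Klf1 nor Slc4a1 passed the filter in any. Klf1, which acts in nucleated red cell precursors, had 0 reads in all 9 MC38 libraries. In B16-F10 TAM it was at 0 in all OMV-SIRP-G libraries, at 0, 2.88 and 0 FPKM after OMV-SIRP and at 0, 0.174 and 0.168 FPKM after PBS, so 1 library held 68 of its 76 reads. Klf1 was detected in every GMP library, at 0.485, 0.698 and 0.430 FPKM after OMV-SIRP-G, 1.15, 0.658 and 0.918 FPKM after OMV-SIRP and 0.904, 0.924 and 0.842 FPKM after PBS. The order of these GMP groups differed from that of the globins, since OMV-SIRP-G lay below PBS while OMV-SIRP overlapped it. Slc4a1 reached at most 0.0541 FPKM in GMP, 0.0979 FPKM in monocytes, 1.58 FPKM in B16-F10 TAM and 1.31 FPKM in MC38 TAM. In B16-F10 TAM it stood at 0.578, 0.172 and 0 FPKM after OMV-SIRP-G, 0.396, 0.0132 and 0.861 FPKM after OMV-SIRP and 0.559, 1.58 and 1.35 FPKM after PBS, groups that overlapped.

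Alas2 was below 1 FPKM in every bone marrow library. In GMP it averaged 0.133 ± 0.0395 FPKM after OMV-SIRP-G, 0.0837 ± 0.0663 FPKM after OMV-SIRP and 0.299 ± 0.125 FPKM after PBS, from 17, 10 and 38 reads. In monocytes it stood at 0.151, 0.287 and 0.200 FPKM after OMV-SIRP-G, at 0.0996, 0 and 0.0735 FPKM after OMV-SIRP and at 0.892, 0.825 and 0.473 FPKM after PBS. The 3 monocyte groups did not overlap and were in the order of the globins. Monocyte PBS replicate 2, highest for every globin, was not highest for Alas2.

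**Figure D4:**
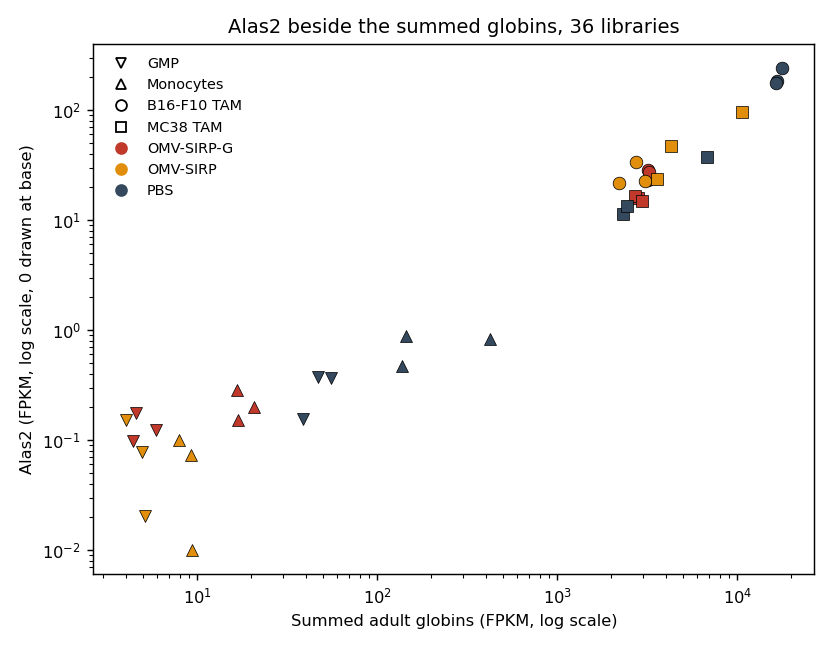
Alas2 against the globin sum in FPKM, both on log axes, for all 36 libraries, with shapes for the populations and colours for OMV-SIRP-G, OMV-SIRP and PBS; a zero is drawn at the base. The TAM libraries with the most globin, B16-F10 PBS, reached 177 to 241 FPKM of Alas2, whereas monocyte PBS replicate 2 had the most globin of its group and not the most Alas2.

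Over the 9 libraries of a population, Alas2 and the globin sum had a Pearson r on log values of 0.98 in B16-F10 TAM, 0.95 in MC38 TAM, 0.94 in monocytes and 0.79 in GMP. These are descriptions of libraries that share groups and scaling. Alas2 per globin differed among groups. It was 0.815% ± 0.0831 of the globin FPKM in B16-F10 TAM after OMV-SIRP-G, 0.986% ± 0.243 after OMV-SIRP and 1.18% ± 0.158 after PBS, where OMV-SIRP overlapped both other groups. In MC38 TAM the share was 0.564% ± 0.0534 after OMV-SIRP-G, 0.892% ± 0.216 after OMV-SIRP and 0.53% ± 0.0352 in the libraries labelled PBS, where OMV-SIRP did not overlap the other groups. In bone marrow the mean share was lowest in PBS, on few Alas2 reads. It was 2.73% ± 0.965, 1.92% ± 1.72 and 0.622% ± 0.205 in GMP, in the order OMV-SIRP-G, OMV-SIRP and PBS. The monocyte values were 1.2% ± 0.462, 0.684% ± 0.634 and 0.386% ± 0.216. OMV-SIRP overlapped PBS in both.

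Alpha-globin and beta-globin sums were high and low in the same libraries, with a Pearson r on log values of 0.98 in GMP, 0.99 in monocytes, 1.00 in B16-F10 TAM and 0.98 in MC38 TAM over 9 libraries each. These r include the gaps between groups, and a high r does not mean a constant ratio. The alpha to beta ratio of FPKM in B16-F10 TAM was 0.72 ± 0.0329 after OMV-SIRP-G, 0.745 ± 0.0837 after OMV-SIRP and 0.842 ± 0.0275 after PBS. In MC38 TAM it was 0.619 ± 0.049, 0.573 ± 0.0858 and 0.562 ± 0.0372 in the same groups, and in monocytes 0.616 ± 0.0285, 0.767 ± 0.196 and 0.669 ± 0.115. The GMP ratio was 0.945 ± 0.335 after OMV-SIRP-G, 0.978 ± 0.0957 after OMV-SIRP and 0.543 ± 0.125 after PBS, from 201, 194 and 1929 globin reads. It ran from 0.399 to 0.628 in PBS, below both treated groups without overlap. Hbb-bt made up 9.81% to 24.3% of beta-globin FPKM in the TAM libraries. Hba-a2 made up 10.6% to 16.2% of alpha-globin FPKM in B16-F10 TAM and 3.12% to 12.6% in MC38 TAM. These splits depend on how reads of the copies were assigned.

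The genes whose pattern over the 9 libraries was most like that of the globin sum differed between populations. They are the 5 with the highest Pearson r on log values among tested protein-coding genes that spanned at least 1 on the log2 scale. In GMP they were Dntt (r = 0.99), Rag1, Ear6, Fcrla and Ly6d, of which Dntt and Rag1 act in antigen receptor gene rearrangement of lymphoid precursors. Dntt averaged 0.194 FPKM after OMV-SIRP-G, 0.231 FPKM after OMV-SIRP and 2.34 FPKM after PBS. Dntt, Rag1, Fcrla and Ly6d averaged at most 0.231 FPKM in either treated group, so they passed the filter on low values only through PBS. That filter required them to be higher in PBS, as the globin sum was. In monocytes they were Irf7 (r = 0.998), Ly6d, Slfn1, Lgals9 and Ifrd1. Ly6d averaged 0.848 FPKM after OMV-SIRP-G, 0.157 FPKM after OMV-SIRP and 16.8 FPKM after PBS. It could not pass the filter without the PBS libraries, where the globin sum was also high. Irf7, a transcription factor of the interferon response, averaged 15.1 FPKM after OMV-SIRP-G, 11.1 FPKM after OMV-SIRP and 46.0 FPKM after PBS. In B16-F10 TAM they were Lag3 (r = 0.98), Serpina3g, Gzmb, Il2rb and Gimap4. Gzmb, a granzyme of cytotoxic lymphocytes, averaged 24.2 FPKM after OMV-SIRP-G, 21.8 FPKM after OMV-SIRP and 65.1 FPKM after PBS. In MC38 TAM they were Capns2 (r = 0.98), Mbd4, 1700037H04Rik, Dynlt1b and Krt18, with Capns2 at 0.217, 4.80 and 2.68 FPKM in the same 3 groups. Krt18 averaged 0.167, 2.28 and 1.48 FPKM there. Capns2 and Krt18 passed the filter only through OMV-SIRP and PBS libraries, and the mean globin sum was lowest after OMV-SIRP-G. The genes named for each population were taken from 373 genes in GMP, 2848 in monocytes, 5196 in B16-F10 TAM and 8823 in MC38 TAM, over libraries that share groups and scaling.

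A wider list of 53 red cell genes, none among the 7, was read beside the globins, and 1 listed gene was not analysed here. The list was chosen with earlier results of these data known, which limits its calls and p-values. Both treated groups of a population share its PBS libraries. In GMP 23 of the 53 were tested. Their median log2 difference was 0.04 after OMV-SIRP-G against PBS, 0.03 after OMV-SIRP against PBS and 0.04 between the treatments, beside 0.00, 0.02 and -0.01 over all tested genes. Against PBS limma called 3 after OMV-SIRP-G (2 higher and 1 lower, with 12% of all genes called) and 8 after OMV-SIRP (4 higher and 4 lower, with 18.2% of all genes called). Scaling to total reads made the split 2 and 2 after OMV-SIRP-G and 3 and 8 after OMV-SIRP. Gata1, a transcription factor of the red cell programme, fell after OMV-SIRP by 0.86 ± 0.09 on the log2 scale (adjusted p = 0.000201, limma), with means of 3.10 FPKM against 6.48 FPKM in PBS. After OMV-SIRP-G it averaged 5.53 FPKM and did not pass against PBS (-0.20 ± 0.09, adjusted p = 0.205, limma), and it was 0.67 ± 0.09 higher than after OMV-SIRP (adjusted p = 0.00133, limma). Among the marker sums given above for GMP, those of eosinophils and of mast cells and basophils had this order of groups. The B lineage sum did not separate the treated groups. The platelet and megakaryocyte sum was lowest in PBS, and the mature neutrophil sum was highest after OMV-SIRP, where Gata1 was lowest. The part of these cells in the Gata1 values was not tested. Gfi1b, a repressor in red cell and platelet precursors, also fell after OMV-SIRP, by 0.64 ± 0.11 (adjusted p = 0.00405, limma). Bnip3l, which clears mitochondria from maturing red cells, rose by 0.56 ± 0.05 (adjusted p = 9.9e-05, limma), as did Ppox, an enzyme of haem synthesis, by 0.40 ± 0.08 (adjusted p = 0.00824, limma). After OMV-SIRP-G the mitochondrial carriers Slc25a37 and Slc25a38 rose by 0.29 and 0.25, and Car2, a carbonic anhydrase, fell by 0.40 (adjusted p at most 0.0326, limma).

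Between the treated GMP groups 7 of the 23 passed, 4 higher and 3 lower (6 and 2 when scaled to total reads, 5 and 2 by limma voom), where 14.8% of all genes were called. Besides Gata1, the haem-linked transporter Abcb10 was higher after OMV-SIRP-G by 0.30, and Bnip3l (-0.46), Nfe2 (-0.24) and Car2 (-0.35) were lower (adjusted p at most 0.0464, limma). Car1, a carbonic anhydrase of red cells, averaged at most 0.273 FPKM in any GMP group, Epor, the erythropoietin receptor, at most 0.325 FPKM and Hemgn at most 0.523 FPKM, so none was tested. Tfrc, the transferrin receptor, and Fech, an enzyme of haem synthesis, passed in no GMP comparison, with Tfrc between -0.12 and 0.13 and Fech between -0.18 and 0.14.

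In monocytes 20 of the 53 were tested, with a median log2 difference of -0.14 after OMV-SIRP-G against PBS, -0.11 after OMV-SIRP against PBS and -0.02 between the treatments, beside -0.01, -0.03 and 0.01 over all tested genes. Limma called 1 after OMV-SIRP-G against PBS (3.67% of all genes called) and 2 after OMV-SIRP against PBS (8.53% of all genes called). Zfpm1, the partner of Gata1 known as Fog1, fell by 0.69 after OMV-SIRP-G and by 0.77 after OMV-SIRP, and Bnip3l fell by 0.45 after OMV-SIRP (adjusted p at most 0.0147, limma). Between the treated groups 2 of the 20 passed, where 2.44% of all genes were called. Bnip3l differed by 0.54 and Tfrc by -1.09, OMV-SIRP-G minus OMV-SIRP (adjusted p at most 0.0256, limma), and when scaled to total reads 1 lower call was left. Gata1 averaged 0.421 FPKM after OMV-SIRP-G, 0.0635 FPKM after OMV-SIRP and 1.09 FPKM after PBS, and it was not tested. Fech passed in no monocyte comparison.

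In B16-F10 TAM 26 of the 53 were tested, with a median log2 difference of -0.30 after OMV-SIRP-G against PBS, -0.13 after OMV-SIRP against PBS and -0.20 between the treatments, beside -0.03, -0.01 and -0.02 over all tested genes. Against PBS limma called 7 after OMV-SIRP-G (2 higher and 5 lower, with 15.1% of all genes called) and 2 after OMV-SIRP (1 higher and 1 lower, with 1.45% of all genes called). Bpgm, which makes the haemoglobin regulator 2,3-bisphosphoglycerate, fell by 1.55 ± 0.22 after OMV-SIRP-G (adjusted p = 0.00106, limma) and by 1.29 ± 0.22 after OMV-SIRP (adjusted p = 0.0149, limma), with means of 8.48, 10.1 and 26.3 FPKM after OMV-SIRP-G, OMV-SIRP and PBS. After OMV-SIRP-G Rhd, a blood group membrane protein, fell by 1.76 ± 0.27 (adjusted p = 0.00176, limma) and Fech, which inserts iron into haem, by 0.80 ± 0.18 (adjusted p = 0.015, limma). Lmo2, a partner of Tal1 and Gata1, rose by 1.14 ± 0.13 (adjusted p = 0.000282, limma). After OMV-SIRP Slc25a38 rose by 0.81 ± 0.16 (adjusted p = 0.0366, limma), a call absent in limma voom, whose 2 calls were both lower.

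Between the treated B16-F10 groups 5 of the 26 passed, 2 higher and 3 lower, where 12% of all genes were called. Among them Lmo2 and Blvrb, a biliverdin reductase, were higher after OMV-SIRP-G by 0.81 and 0.65, and Tmod1, a cap of actin filaments, differed by -1.11 (adjusted p at most 0.0388, limma). Gata1 averaged 0.126 FPKM after OMV-SIRP-G, 0.124 FPKM after OMV-SIRP and 0.128 FPKM after PBS, and Hemgn 0, 0 and 0.0768 FPKM in the same groups, both below the filter. Car1 was at 0 after OMV-SIRP and PBS and reached 33.8 FPKM in an OMV-SIRP-G library. Tfrc, Car2 and Epor passed in no B16-F10 comparison.

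In MC38 TAM 24 of the 53 were tested, with a median log2 difference of 0.15 after OMV-SIRP-G against PBS, 0.36 after OMV-SIRP against PBS and -0.16 between the treatments, beside 0.07, 0.03 and 0.05 over all tested genes. Against the libraries labelled PBS limma called 6 after OMV-SIRP-G (4 higher and 2 lower, with 19.9% of all genes called) and 5 after OMV-SIRP (3 higher and 2 lower, with 10.9% of all genes called). Scaling to total reads made the splits 4 and 3 after OMV-SIRP-G and 3 and 4 after OMV-SIRP, and limma voom gave 6 and 1 after OMV-SIRP-G. Lmo2 rose by 2.42 ± 0.42 after OMV-SIRP-G and by 2.57 ± 0.42 after OMV-SIRP, Zfpm1 by 2.21 ± 0.39 and 1.74 ± 0.39, and Bnip3l by 0.96 ± 0.22 and 1.14 ± 0.22 (adjusted p at most 0.0245, limma). Tfrc fell by 1.39 ± 0.37 and 1.87 ± 0.37 (adjusted p at most 0.0304, limma), and Car2 rose after OMV-SIRP-G by 1.28 ± 0.29 (adjusted p = 0.0153, limma). All 7 macrophage markers were lowest in the same PBS libraries, and their part in these changes was not tested. Gata1 averaged 0.349 FPKM after OMV-SIRP-G and 0.603 FPKM after OMV-SIRP and was at 0 in the libraries labelled PBS, Car1 was at 0 in all 9 libraries, and Fech and Epor passed in no comparison. Between the treated groups limma called 0 of the 24, with 2 at an unadjusted p under 0.05 and 0 by limma voom.

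A list of 7 genes by which macrophages take up and recycle haemoglobin and haem was also read. It too was chosen with earlier results of these data known. In GMP limma called 2 of 6 tested after OMV-SIRP-G and 1 after OMV-SIRP against PBS, all higher, beside 12% and 18.2% of all genes. In monocytes it called 1 of 7 after OMV-SIRP-G, which was higher, and 3 after OMV-SIRP, 1 higher and 2 lower, against PBS, beside 3.67% and 8.53% of all genes, and 2 between the treatments, both higher after OMV-SIRP-G, beside 2.44%. In B16-F10 TAM it called 2 of 7 after OMV-SIRP-G and 1 after OMV-SIRP against PBS, and 3 between the treatments, all higher, beside 15.1%, 1.45% and 12% of all genes. In MC38 TAM it called 1 of 5, which was higher, after OMV-SIRP-G against the libraries labelled PBS, beside 19.9% of all genes. The comparisons with 0 called were those between the treatments in GMP and in MC38 TAM and that of OMV-SIRP against PBS in MC38 TAM, with 1 gene each at an unadjusted p under 0.05 and 0 by limma voom. Scaled to total reads, 1 was called in GMP between the treatments and 1, lower, in MC38 TAM after OMV-SIRP. Without MC38 OMV-SIRP replicate 3, 1 was called in each of those MC38 comparisons. The list's median log2 difference after OMV-SIRP-G against PBS was 0.03 in GMP, 0.04 in monocytes, 0.72 in B16-F10 TAM and 0.14 in MC38 TAM. After OMV-SIRP against PBS it was -0.02 in GMP, -0.03 in monocytes, 0.06 in B16-F10 TAM and -0.34 in MC38 TAM, where all tested MC38 genes had a median of 0.03.

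Hmox1, the inducible haem oxygenase that breaks haem down, was picked from this list after its values were seen. It rose in GMP by 0.43 ± 0.06 after OMV-SIRP-G and by 0.45 ± 0.06 after OMV-SIRP (adjusted p at most 0.00116, limma), where the globins were low. In monocytes it averaged 2463 FPKM after OMV-SIRP-G, 867 FPKM after OMV-SIRP and 2650 FPKM after PBS. It was 1.51 ± 0.16 higher after OMV-SIRP-G than after OMV-SIRP (adjusted p = 0.00387, limma) and fell by 1.60 ± 0.16 after OMV-SIRP against PBS (adjusted p = 0.00122, limma). After OMV-SIRP-G against PBS the monocyte difference of -0.10 did not pass (adjusted p = 0.784, limma). In B16-F10 TAM it rose by 1.47 ± 0.10 after OMV-SIRP-G (adjusted p = 1.66e-05, limma) and by 0.57 ± 0.10 after OMV-SIRP (adjusted p = 0.017, limma), against the direction of the globins. The call after OMV-SIRP was lost with the compared groups alone (adjusted p = 0.069, limma) and when any 1 of the PBS replicates or OMV-SIRP replicate 1 was left out (adjusted p between 0.0648 and 0.102, limma). In MC38 TAM it rose by 1.27 ± 0.26 after OMV-SIRP-G (adjusted p = 0.0113, limma), against PBS libraries whose summed macrophage markers were 50.1 to 115 FPKM beside 1067 to 1085 FPKM after OMV-SIRP-G. The part of that gap in the change was not tested. After OMV-SIRP its difference of 0.66 in MC38 TAM did not pass (adjusted p = 0.142, limma).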

How the data were processed

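RNA from 36 mouse libraries was extracted with TRIzol and made into libraries with an NEBNext mRNA kit, per the labels' protocols. HISAT2 2.0.5, StringTie and featureCounts 1.5.0-p3 are named in the submitters' processing notes. The authors deposited FPKM per gene in 3 tables (GMP with monocytes, B16-F10 TAM, MC38 TAM), on gene positions of GRCm38. FPKM multiplied by gene length gave whole reads for 100% of nonzero values, within 0.05 of a read, and the recovered totals were 13036567 to 19822660 reads per library. These totals limit how finely genes with few reads can be read.

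In each population, limma 3.58.1 (R 4.3.3, with trend and robust moderation) was fitted to log2(FPKM + 1) over 9 libraries, for genes with 1 FPKM or more in 3 or more libraries, with Benjamini-Hochberg adjustment over all tested genes and a threshold of 0.05. Log2 differences on this scale understate the change of low genes. Sums of the globin copies were fitted in the same model. Members and lists were chosen with earlier results of these data known, so the 7 genes were tested only between OMV-SIRP-G and OMV-SIRP. Genes of the lists were also tested against PBS, and those calls and p-values carry the same prior knowledge. From the wider red cell list, 10 genes were always to be named and, in each comparison, up to 4 called genes with the lowest adjusted p. Some genes that this rule names are not reported here. Alternatives were a pseudocount of 0.1, no filter, total-read scaling, a voom fit in limma of the recovered reads with trimmed-mean (TMM) factors, a replicate block, the compared groups alone, and leaving out each library. Replicates of a group differed beyond sampling noise. The fit was tested on simulated data. Promoters are from RefSeq and coding sequences from GENCODE M21.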

Additional observations from a re-analysis of the deposited data

Results flagged for a closer look

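The values of the treated groups were ordered oppositely in the tumour models, although among the 3 measures given here limma called only Hbb-bs in B16-F10 TAM (adjusted p = 0.0366), a call lost under several alternatives. The B16-F10 sums had adjusted p-values of 0.101 and 0.152 and the MC38 measures 0.46 to 0.501 (limma). OMV-SIRP-G libraries were all above OMV-SIRP libraries in B16-F10 TAM and all below them in MC38 TAM for Hbb-bs, with log2 differences (OMV-SIRP-G minus OMV-SIRP) of 0.36 in B16-F10 TAM and -0.91 in MC38 TAM. The beta-globin sum gave 0.30 in B16-F10 TAM and -0.99 in MC38 TAM. The globin sum gave 0.28 in B16-F10 TAM and -0.95 in MC38 TAM. The difference between the models was not tested, since the tables were scaled separately, and the 3 measures share the reads of Hbb-bs.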

How the results depend on the processing

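Log2 differences of the globin sum from PBS kept their sign in GMP, monocytes and B16-F10 TAM under every alternative and every library left out; in MC38 TAM the OMV-SIRP-G value turned positive without PBS replicate 3. In GMP the OMV-SIRP value was -3.28 with a pseudocount of 0.1 and -3.30 with limma voom; in B16-F10 TAM the OMV-SIRP-G value was -2.44 when scaled to total reads. Between the treatments (OMV-SIRP-G minus OMV-SIRP) the monocyte difference of 0.95 was called with the compared groups alone (limma adjusted p = 0.00127). That fit called 2118 genes, beside 293 in the main fit. The B16-F10 difference was 0.28 with limma voom and was called there (adjusted p = 0.0431). The cause of these changes was not tested. Leaving out 1 library gave differences of the globin sum between -0.05 and 0.13 for GMP, between 0.86 and 1.01 for monocytes, between 0.15 and 0.39 for B16-F10 TAM and between -1.26 and -0.47 for MC38 TAM. Against PBS these ranges were -3.13 to -2.88 after OMV-SIRP-G and -3.19 to -2.94 after OMV-SIRP in GMP, -3.71 to -2.90 and -4.66 to -3.85 in monocytes, -2.41 to -2.36 and -2.78 to -2.54 in B16-F10 TAM, and -0.53 to 0.25 and 0.22 to 1.20 in MC38 TAM. Calls among the wider red cell genes moved by over 1.5 times in these cases, given in the order OMV-SIRP-G against OMV-SIRP, OMV-SIRP-G against PBS, OMV-SIRP against PBS where several are listed. Without the filter there were 4 and 5 in GMP (the first and last of these), 1, 2 and 4 in monocytes, 2 and 0 in B16-F10 TAM (first and last) and 3 in MC38 TAM (last). With the compared groups alone there were 1 and 4 in GMP (both against PBS), 6, 0 and 1 in monocytes, 2 and 1 in B16-F10 TAM (first and last) and 1 in MC38 TAM (last). With a replicate block there were 0, 0 and 1 in monocytes and 3 and 1 in B16-F10 TAM (first and last). Scaling to total reads left 1 in monocytes in the first and 1 in the last, and limma voom left 3 in MC38 TAM in the last. Leaving out 1 library gave calls of 2 to 10, 0 to 5 and 5 to 9 for GMP, of 0 to 6, 0 to 4 and 1 to 5 for monocytes, of 2 to 6, 5 to 9 and 0 to 2 for B16-F10 TAM, and 0 to 1, 2 to 9 and 2 to 7 in MC38 TAM. Deviations of same-numbered libraries from their group means had correlations from -0.370 to 0.250. Differently numbered libraries were not compared, so whether the numbers pair the libraries was not settled. With the block the globin sum had limma adjusted p-values of 0.821 in GMP, 0.362 in monocytes, 0.175 in B16-F10 TAM and 0.558 in MC38 TAM. Scaling to total reads shifted the median log2 difference of all MC38 genes to -0.27 for OMV-SIRP against PBS and 0.21 between the treatments. Genes with few reads, as Klf1, Slc4a1 and bone marrow Alas2, are limited by depth.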
